A study of Danio rerio with 30 samples.

Results

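Ionocyte transporter genes encode the pumps, channels, exchangers and carbonic anhydrases with which specialised epithelial cells move salt, acid and ammonia, and the Foxi3 forkhead factors that set up those cells. The set holds 10 gene symbols looked up in the array's annotation, each represented by its brightest probe set. Of these, 9 had a probe set of their own among the 19260 genes measured. The calcium channel gene trpv6 was read only by a probe set that the annotation also assigns to si:dkey-26c10.5, so it has no value here. The other 9 are slc12a10.2, clcn2c, rhcga, rhcgb, slc9a3.2, ca2, ca15c, foxi3a and foxi3b, each read by 1 probe set.

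The study targeted grb10a, which encodes an adaptor protein of insulin and insulin-like growth factor receptors, in AB strain zebrafish. Knockdown (KD) embryos received a morpholino aimed, by the series design, at the splice donor of grb10a coding exon 3 (the treatment notes also mention one at exon 4), and control (SC) embryos received the standard control oligonucleotide against human beta-globin. Both solutions also held nCerulean mRNA as a tracer and were injected a single time into the yolk before the 4-cell stage, and weakly or unevenly fluorescent embryos were discarded. At ages of 5, 10, 15, 20 or 30 days after fertilisation (dpf), RNA of the tissue in front of the gills was measured on ZebGene 1.0 ST arrays, with 3 arrays for each treatment and age and 5 fish pooled on each array. A pool hides the spread between single fish, and the labels do not say whether the 3 pools of a group came from separate clutches, so p-values measure only the spread between pools.

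Fish keep their salt balance through ionocytes, which lie in the skin of the larva and later mainly in the gill. In zebrafish, cells rich in the sodium-chloride cotransporter Slc12a10.2 (NCC cells) take up chloride, cells rich in H+-ATPase (HR cells) secrete acid and exchange sodium, and cells rich in Na+,K+-ATPase (NaR cells) take up calcium. Rh glycoproteins conduct ammonia across these epithelia, carbonic anhydrases supply protons and bicarbonate, and foxi3a and foxi3b act in the precursors. The gills themselves lie outside the sampled tissue by its label, but whether each pool kept to that label was not tested. Several of these genes are also used in kidney and other epithelia.

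Values are log2 signals. A group is given as the mean ± SD of its 3 arrays (n = 3), and a difference between groups with its standard error (SE). Differences were tested with limma, with p-values adjusted by Benjamini-Hochberg over all 19260 genes, and a gene is said to rise or fall only where that p was under 0.05. The median signal of an array lay between 5.51 and 5.63. The median SD within groups was 0.188 over all genes. The signal of grb10a itself was higher in knockdown at 5 dpf (9.11 against 8.10, limma adjusted p = 3.59e-07) and passed the test at no other age, and the labels do not place its probes relative to the blocked splice site. Because whole tissue was measured, fewer cells of a type and less RNA per cell cannot be told apart.

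Over all 30 arrays, rhcga (mean signal 8.09), ca2 (8.02), slc12a10.2 (6.68), rhcgb (6.61) and foxi3b (6.20) lay above 6.06, the limit under which the dimmest 33.3% of genes fall. The other members, clcn2c (5.77), foxi3a (5.73), ca15c (5.61) and slc9a3.2 (5.52), lay under it, where a signal can hold a large share of background, which was not measured here. Between the lowest and the highest group mean, ca15c spanned 3.61 log2 units, rhcga 3.31, rhcgb 2.40 and ca2 1.59. The range was 1.37 for clcn2c, 1.30 for slc12a10.2, 1.29 for slc9a3.2, 1.09 for foxi3b and 0.65 for foxi3a. Over all genes the median range was 0.73 and the 90th percentile 1.51.

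**Figure D1:**
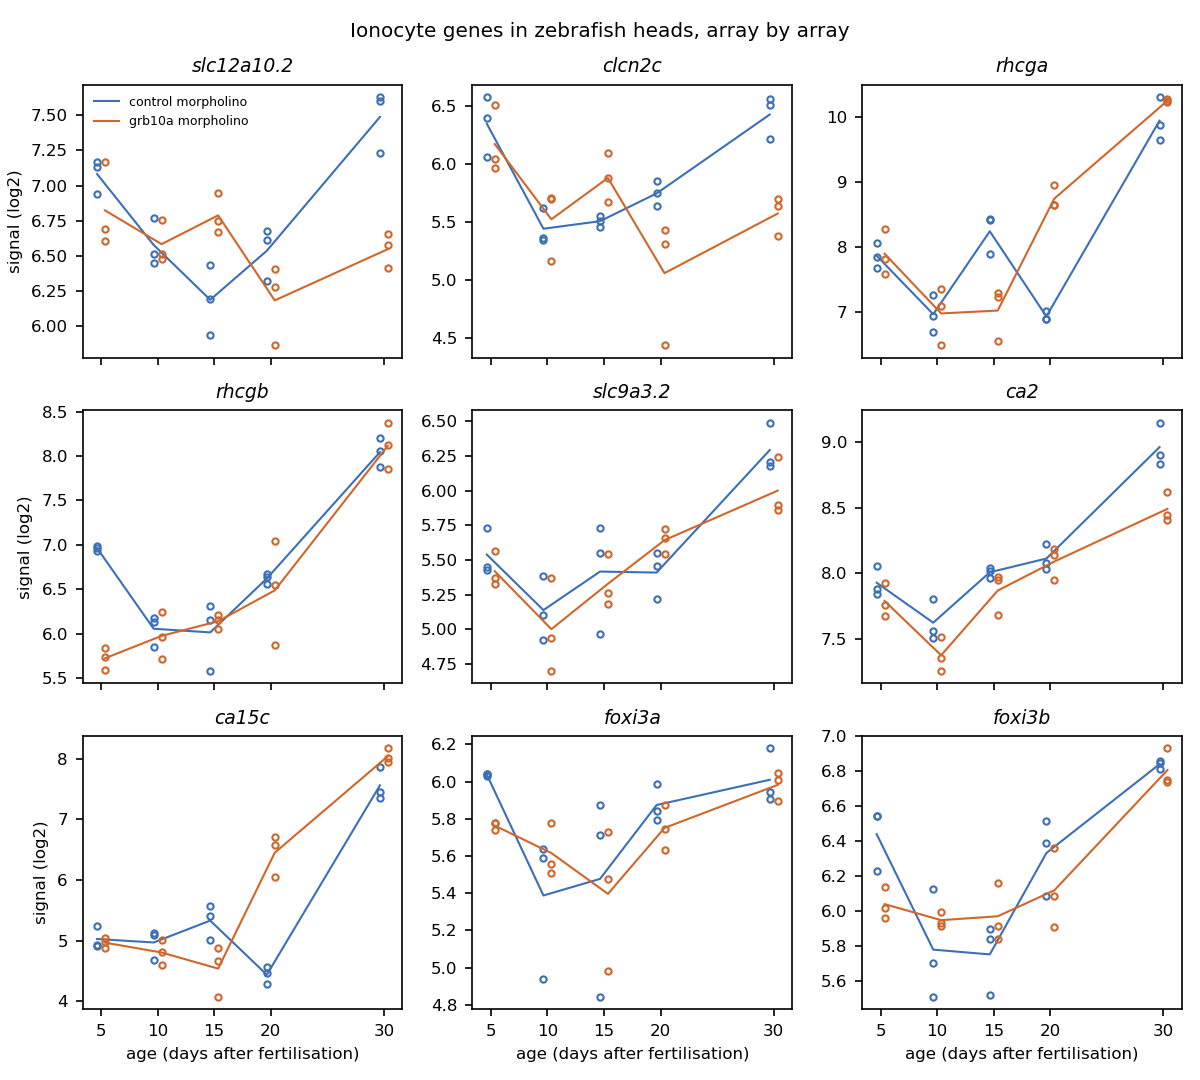
Log2 signal of the 9 measured ionocyte genes (vertical axes, which differ between panels) against age in dpf, with a point for each array of control and knockdown fish and lines through the group means. Both rhcga and ca15c are high at 30 dpf and part between the treatments at 15 and 20 dpf, and slc12a10.2 lies at 6.41 to 6.65 in knockdown and 7.23 to 7.63 in controls at 30 dpf.

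The sodium-chloride cotransporter gene slc12a10.2, which defines NCC cells, followed different courses in control and knockdown fish. Control arrays read 7.17, 6.94 and 7.13 at 5 dpf, 6.45, 6.77 and 6.52 at 10 dpf, and 6.19, 6.43 and 5.94 at 15 dpf. They then read 6.61, 6.67 and 6.32 at 20 dpf and 7.60, 7.23 and 7.63 at 30 dpf. The control signal was thus lowest at 15 dpf and highest at 30 dpf, and the 30 dpf arrays lay above the arrays of every other group. Knockdown arrays read 7.17, 6.61 and 6.69 at 5 dpf, 6.76, 6.48 and 6.51 at 10 dpf, and 6.75, 6.95 and 6.67 at 15 dpf. At 20 dpf they read 6.28, 6.40 and 5.87, and at 30 dpf 6.65, 6.58 and 6.41. Knockdown group means therefore stayed between 6.18 and 6.82, and in the order of the 10 groups 8 of 9 neighbouring pairs overlapped in their arrays.

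At 15 dpf slc12a10.2 was higher in all 3 knockdown arrays than in any control array, at 6.79 ± 0.15 against 6.19 ± 0.25. It rose by 0.60 (SE 0.16, limma adjusted p = 0.0172), or 1.52-fold, but the call was lost without SC replicate 3, KD replicate 1 or KD replicate 2 (0.48 to 0.72 over the 6 fits, adjusted p up to 0.101). At 30 dpf the order was turned, and every knockdown array lay below every control array. The signal was 6.55 ± 0.12 in knockdown and 7.49 ± 0.22 in controls, so it fell by 0.94 (SE 0.16, limma adjusted p = 0.00163), a 1.92-fold lower signal. Without any single array of the comparison the difference was -1.07 to -0.87 and passed the test each time. Between 15 and 30 dpf the knockdown difference thus moved by -1.54 (SE 0.23, limma adjusted p = 3.69e-04), a contrast chosen after the values were seen, in which 6.32% of all genes passed. At 20 dpf the difference was -0.35 (adjusted p = 0.156), with arrays that overlapped, and at 5 and 10 dpf it was -0.26 and 0.01.

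The chloride channel gene clcn2c, whose product lies on the inner side of NCC cells, had differences of the same sign at 15, 20 and 30 dpf, at lower signals. At 15 dpf its control arrays read 5.56, 5.46 and 5.50 and its knockdown arrays 5.88, 6.09 and 5.67. The knockdown arrays lay above the controls there, but the difference of 0.37 (SE 0.20) did not pass the test (limma adjusted p = 0.236). At 20 dpf the control arrays read 5.85, 5.64 and 5.75 and the knockdown arrays 5.31, 5.43 and 4.44, all of them below the controls and all under the dim limit. The gene fell by 0.69 (SE 0.20, limma adjusted p = 0.0204), or 1.61-fold, and without KD replicate 3, the lowest array, the difference was -0.38 (adjusted p = 0.198). The call was also lost without SC replicate 1 or SC replicate 3. At 30 dpf control arrays read 6.56, 6.21 and 6.51 and knockdown arrays 5.38, 5.70 and 5.64. These did not overlap, and clcn2c fell by 0.85 (SE 0.20, limma adjusted p = 0.0286), a 1.81-fold lower signal. Of the 6 fits that leave out an array of the comparison, that call passed in the 1 without SC replicate 2 (range -0.96 to -0.76, adjusted p up to 0.184). At 5 dpf the means were 6.17 ± 0.29 in knockdown and 6.35 ± 0.26 in controls, and at 10 dpf 5.52 ± 0.31 and 5.44 ± 0.15. Over the 10 group means slc12a10.2 and clcn2c correlated at 0.91 (Spearman 0.85), with all points taken from the same 30 arrays.

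The sodium-bicarbonate cotransporter gene slc4a4b, a further NCC cell gene from a list of other ionocyte genes, was called at 15 and 30 dpf. Its arrays read 8.53, 8.43 and 8.33 in knockdown and 7.78, 8.15 and 7.69 in controls at 15 dpf, where it rose by 0.56 (SE 0.12, limma adjusted p = 0.00283). At 30 dpf they read 7.67, 7.89 and 7.91 in knockdown and 8.26, 8.19 and 8.44 in controls. It fell by 0.47 there (SE 0.12, limma adjusted p = 0.0420), a call lost in each of the 6 fits without an array (up to 0.256), and with only the compared arrays neither call of slc4a4b passed (0.0655 at 15 dpf, 0.123 at 30 dpf). The gene was picked at both ages by its p among the listed ionocyte genes. The other 2 measured genes listed for NCC cells, both dim, passed at neither age: slc12a10.3 was at 0.76 (adjusted p = 0.0523) at 15 dpf and 0.05 at 30 dpf, and slc12a10.1 at -0.61 and 0.37.

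The gene rhcga, which encodes an ammonia channel of the Rh glycoprotein family, was the brightest member and turned in its difference between 15 and 20 dpf. Control arrays read 7.86, 7.68 and 8.07 at 5 dpf, 6.69, 6.95 and 7.27 at 10 dpf, and 8.43, 7.89 and 8.41 at 15 dpf. They read 6.89, 7.02 and 6.90 at 20 dpf, and at 30 dpf 9.87 and 9.65 in replicates 2 and 3, with replicate 1 above both (mean 9.94 ± 0.33). In controls the gene thus stood low at 10 and 20 dpf, higher at 5 and 15 dpf and highest at 30 dpf. Knockdown arrays read 7.82, 7.60 and 8.28 at 5 dpf, 7.10, 7.35 and 6.50 at 10 dpf, and 7.30, 7.23 and 6.56 at 15 dpf. At 20 dpf they had reached 8.64, 8.95 and 8.64, and at 30 dpf 10.27, 10.22 and 10.25. In the order of the groups both 30 dpf groups came first, then knockdown at 20 dpf, and 6 of 9 neighbouring pairs overlapped.

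At 15 dpf rhcga fell in knockdown, from 8.24 ± 0.31 in controls to 7.03 ± 0.41, by 1.21 (SE 0.22, limma adjusted p = 9.04e-04), or 2.32-fold. At 20 dpf it rose from 6.94 ± 0.07 to 8.74 ± 0.18, by 1.81 (SE 0.22, limma adjusted p = 2.88e-06), or 3.50-fold. The arrays of the treatments did not overlap at either age, and both calls passed without any single array of the comparison and under each alternative that was run. Between 15 and 20 dpf the knockdown difference moved by 3.02 (SE 0.31, limma adjusted p = 1.46e-07), chosen after the values were seen, in a contrast that 20.8% of all genes passed. At 30 dpf the means of 10.25 ± 0.03 and 9.94 ± 0.33 were within the spread of the controls (difference 0.31, adjusted p = 0.659). At 5 and 10 dpf the differences were 0.03 and 0.01.

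Carbonic anhydrase ca15c, of the membrane-linked Ca15 group, was dim in most groups and parted between the treatments in the directions of rhcga at 15 and 20 dpf. Its control arrays read 4.93, 4.91 and 5.24 at 5 dpf, a mean of 4.97 ± 0.25 at 10 dpf, and 5.41, 5.00 and 5.58 at 15 dpf. They read 4.56, 4.29 and 4.46 at 20 dpf and 7.88, 7.46 and 7.36 at 30 dpf. Knockdown arrays lay at 4.88, 4.07 and 4.66 at 15 dpf, 6.58, 6.72 and 6.06 at 20 dpf, and 8.17, 8.01 and 7.95 at 30 dpf. Every group through 15 dpf thus lay under the dim limit, while knockdown at 20 dpf and both treatments at 30 dpf did not. At 15 dpf ca15c fell by 0.79 (SE 0.19, limma adjusted p = 0.00882), or 1.73-fold, between signals that were both dim, and this call was lost without SC replicate 3 or KD replicate 2 (adjusted p up to 0.085). At 20 dpf it rose by 2.02 (SE 0.19, limma adjusted p = 1.58e-07), or 4.04-fold, from 4.44 ± 0.14 to 6.45 ± 0.35, and passed under each alternative that keeps dim genes. From 15 to 20 dpf the knockdown difference moved by 2.81 (SE 0.27, limma adjusted p = 6.1e-08). At 30 dpf the knockdown arrays again lay above the controls, by 0.48 (SE 0.19), which did not pass the test (adjusted p = 0.312). Across the 10 group means rhcga and ca15c correlated at 0.97 (Spearman 0.89). The deviations of the 30 arrays from their group means correlated at 0.46. Between 5 and 10 dpf the control mean of rhcga went from 7.87 to 6.97, while that of ca15c went from 5.03 to 4.97.

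**Figure D2:**
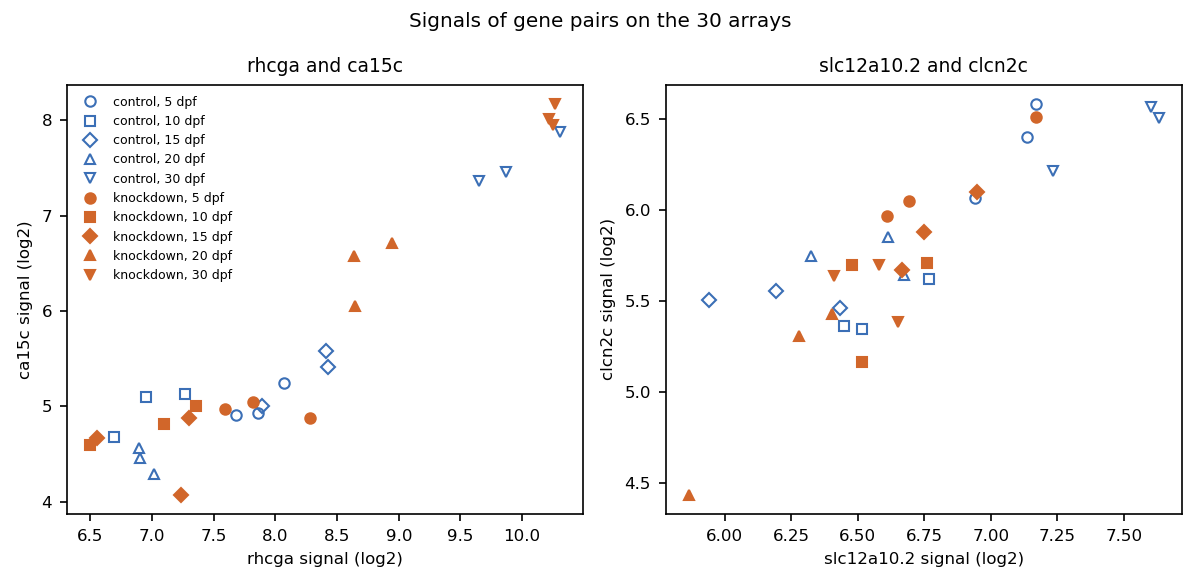
Log2 signals of rhcga against ca15c and of slc12a10.2 against clcn2c on the 30 arrays, 1 point for each array, with open marks for controls, filled marks for knockdown and a shape for each age. The 30 dpf arrays of both treatments hold the upper end for rhcga and ca15c (group means correlate at 0.97), while for slc12a10.2 and clcn2c (0.91) the upper end is held mostly by controls at 5 and 30 dpf.

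The second Rh glycoprotein gene, rhcgb, differed between the treatments at 5 dpf. Its control arrays read 6.97, 6.99 and 6.93 at 5 dpf and its knockdown arrays 5.59, 5.84 and 5.74. They did not overlap, and the gene fell by 1.24 (SE 0.20, limma adjusted p = 9.72e-05), a 2.36-fold lower signal. The call passed without any single array of the comparison and under each alternative run. At 10 dpf the arrays read 6.25, 5.96 and 5.72 in knockdown and 5.85, 6.18 and 6.13 in controls, which overlapped. From 5 to 10 dpf the knockdown difference moved by 1.16 (SE 0.29, limma adjusted p = 0.00982), where 10.0% of all genes passed. From 5 to 30 dpf it moved by 1.31 (SE 0.29, limma adjusted p = 0.00422), where 8.31% passed. At 15, 20 and 30 dpf the differences were 0.13, -0.13 and 0.07, with overlapping arrays. The highest groups were knockdown and control at 30 dpf, at 8.12 ± 0.26 and 8.05 ± 0.17, and neither overlapped with the next group, controls at 5 dpf. Across the 10 group means rhcgb and rhcga correlated at 0.81 (Spearman 0.42).

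At 5 dpf other tissues differed between the treatments too. The mean signal of 13 kidney marker genes, of which 10 were dim on average, was 6.52 to 6.56 in control arrays and 5.74 to 5.86 in knockdown arrays. Of the 13, 5 fell, against 6.51% of all genes, and of these pdzk1 fell by 3.33 and cdh17 fell by 3.04. The mean of 12 exocrine pancreas genes was 11.19 to 11.36 in controls and 5.67 to 6.33 in knockdown, that of 11 liver genes 9.13 to 9.41 and 5.16 to 6.35, and that of 6 intestine genes 7.76 to 7.94 and 5.03 to 5.40. These organs lie outside the tissue given by the label, and whether the 5 dpf control pools held tissue from behind it was not tested. The mean of 8 inner ear genes was 6.79 to 6.94 in controls and 6.14 to 6.75 in knockdown, and 2 of the 8 fell. Lists of mucous cell, keratinocyte and red cell genes overlapped between the treatments at 5 dpf. In every group from 10 dpf on the kidney list lay between 5.42 and 6.16. The kidney, pancreas, liver, intestine and inner ear lists were lower in knockdown beside rhcgb at 5 dpf, and their part in its difference was not tested.

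The sodium-hydrogen exchanger gene slc9a3.2, the counterpart of mammalian NHE3 in HR cells, passed no test between the treatments. Its group means lay between 5.00 and 5.64 up to 20 dpf and at 6.29 ± 0.17 in controls and 6.0 ± 0.21 in knockdown at 30 dpf. The knockdown difference was -0.29 at 30 dpf (limma adjusted p = 0.576) and 0.23 at 20 dpf (0.424). Both 30 dpf groups came first in the order of levels, and knockdown at 30 dpf did not overlap with the next group.

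Cytosolic carbonic anhydrase ca2, an abundant enzyme of HR cells and of other tissues, was lower in knockdown at 30 dpf. Its control arrays read 9.15, 8.84 and 8.90 there and its knockdown arrays 8.45, 8.41 and 8.62. They did not overlap, and ca2 fell by 0.47 (SE 0.12, limma adjusted p = 0.0404), or 1.39-fold, a call that was lost without SC replicate 1, SC replicate 3, KD replicate 1 or KD replicate 2 (-0.53 to -0.38, adjusted p up to 0.27). At earlier ages the differences were -0.14, -0.25, -0.14 and -0.02 at 5, 10, 15 and 20 dpf, none past the test. Over the mean of the 5 ages ca2 was the 1 member of 9 that passed, at -0.20 (SE 0.05, limma adjusted p = 0.0274), where 3.01% of all genes passed and 1.39% fell. Among the calls over all genes in that mean, 54.0% rose, or 42.9% after a second quantile normalization. For ca2 the mean passed in 26 of the 30 fits that leave out an array (-0.22 to -0.19), the exceptions being SC replicate 2 at 5 dpf, KD replicate 3 at 15 dpf, KD replicate 3 at 20 dpf and SC replicate 1 at 30 dpf. In the order of the groups of ca2, controls at 30 dpf came first, then knockdown at 30 dpf, then controls at 20 dpf, without overlap between these 3, and both 10 dpf groups came last.

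The forkhead genes foxi3a and foxi3b passed no test between the treatments. For foxi3a the 5 dpf arrays read 6.04, 6.03 and 6.04 in controls and 5.78, 5.74 and 5.78 in knockdown, which did not overlap (difference -0.27, SE 0.20, limma adjusted p = 0.426). At later ages its differences lay between -0.12 and 0.23. For foxi3b the arrays read 6.55, 6.55 and 6.23 in controls and 6.02, 5.96 and 6.14 in knockdown at 5 dpf, again without overlap (difference -0.40, SE 0.15, limma adjusted p = 0.077). Without SC replicate 3 this difference passed the test. At 30 dpf foxi3b read 6.85, 6.86 and 6.81 in controls and 6.93, 6.74 and 6.75 in knockdown, which overlapped and were the highest groups of the gene.

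Counted by age, 1 of the 9 members fell at 5 dpf (rhcgb), where 12% of all genes passed and 6.51% fell. None passed at 10 dpf by limma, against 2.67% of all genes, and 1 did at an unadjusted p under 0.05. At 15 dpf 1 rose (slc12a10.2) and 2 fell (rhcga and ca15c), against 12% of all genes, 9.18% that rose and 2.84% that fell. Of the calls over all genes at 15 dpf 76.4% rose, or 87.8% after median centring of each array. At 20 dpf 2 rose (rhcga and ca15c) and 1 fell (clcn2c), against 14.5% of all genes and 4.31% that fell. Of the calls over all genes at 20 dpf 70.2% rose, or 52.6% after a second quantile normalization. At 30 dpf 3 fell (slc12a10.2, clcn2c and ca2) and none rose, against 1.00% of all genes and 0.639% that fell. Without SC replicate 1, SC replicate 3, KD replicate 1 or KD replicate 2 that count was 1, and at 15 dpf it was 1 without SC replicate 3 or KD replicate 2. With only the compared arrays in the fit, slc12a10.2 (limma adjusted p = 0.0618) and ca15c (0.0698) at 15 dpf, clcn2c (0.0732) at 20 dpf and ca2 (0.133) at 30 dpf did not pass. The median difference of the members was -0.18, 0.01, -0.08, -0.12 and -0.03 at the 5 ages in order, against 0.02, 0.04, 0.08, -0.01 and -0.04 over all genes.

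**Figure D3:**
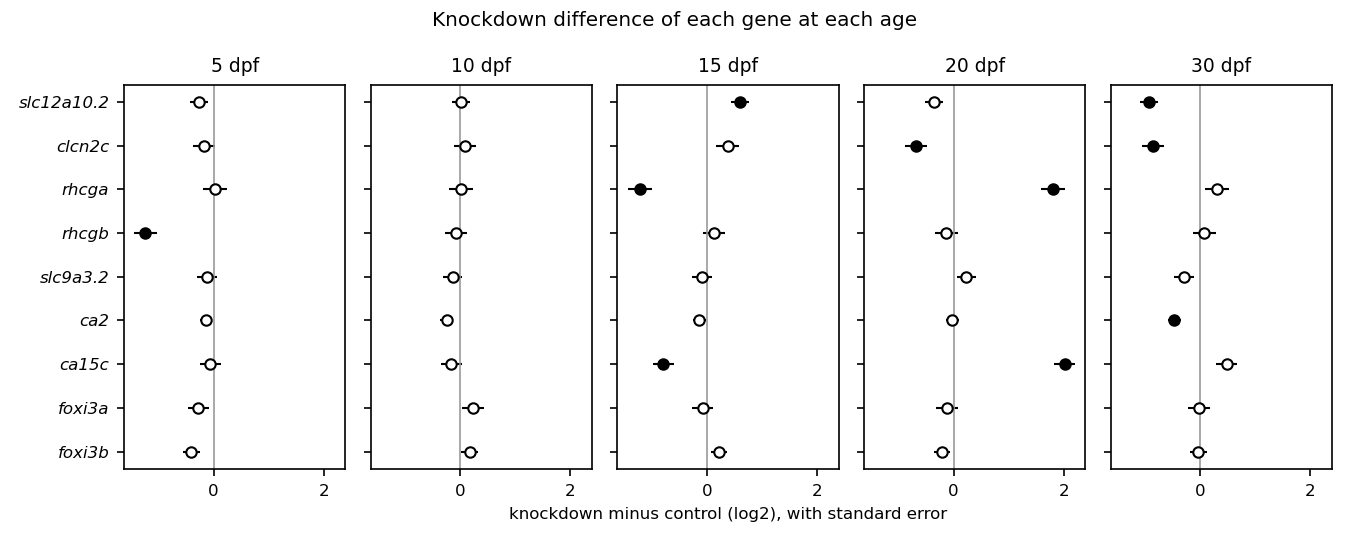
Knockdown minus control difference of each measured ionocyte gene in log2 units with its SE, by age in dpf, with filled points where the limma adjusted p was under 0.05. Filled points lie on both sides of 0 at 15 and 20 dpf, where rhcga goes from -1.21 to 1.81 and ca15c from -0.79 to 2.02, and all 3 lie below 0 at 30 dpf.

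The F test of whether the knockdown difference varied between ages passed for 5 of 9 members, against 31.7% of all genes. These were ca15c (F = 30.1, limma adjusted p = 2.4e-07), rhcga (24.1, 1.54e-06), slc12a10.2 (11.9, 2.63e-04), rhcgb (7.56, 0.00315) and clcn2c (6.59, 0.00595). The test did not pass for foxi3b (3.11, 0.0825), ca2 (2.15, 0.19), slc9a3.2 (1.18, 0.448) or foxi3a (0.85, 0.596). Between 15 and 20 dpf these differences went opposite ways. The differences of rhcga and ca15c went up by 3.02 and 2.81, while those of slc12a10.2 and clcn2c went down, by -0.95 (SE 0.23, limma adjusted p = 0.00396) and -1.06 (SE 0.28, limma adjusted p = 0.00849).

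**Figure D4:**
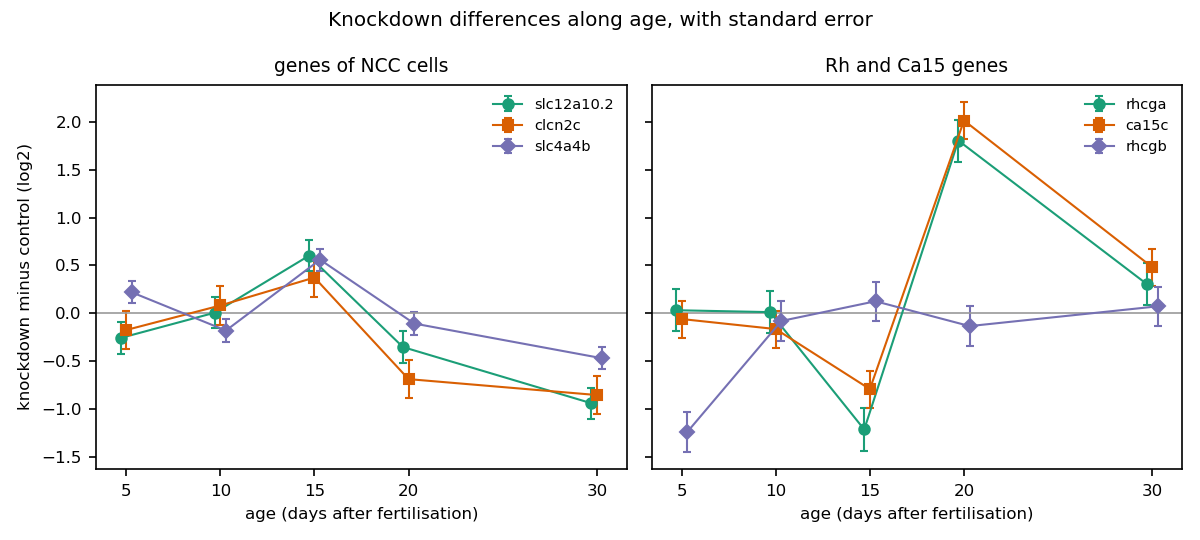
Knockdown minus control difference in log2 units (vertical axis) against age in dpf for slc12a10.2, clcn2c, rhcga, ca15c, rhcgb and the added NCC cell gene slc4a4b, with bars of 1 SE. The gene slc4a4b was picked by its p. The other measured genes of the NCC cell list are not drawn, and of these slc12a10.1 differed the other way at 15 and 30 dpf without passing the test. The lines of rhcga and ca15c rise from 15 to 20 dpf while those of slc12a10.2 and clcn2c drop below 0, and rhcgb stands apart at 5 dpf (-1.24).

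Most members changed with age in control fish. From 5 to 10 dpf 7 of 9 fell and none rose, against 28.5% of all genes that passed and 14.7% that fell. Their median was -0.65, against -0.02 over all genes. Of the calls over all genes 48.4% rose, or 62.1% after median centring. The falls were 0.91 for clcn2c (limma adjusted p = 0.00125), 0.91 for rhcgb (0.00147), 0.90 for rhcga (0.00307), 0.66 for foxi3b (0.0013) and 0.65 for foxi3a (0.0155). They were 0.50 for slc12a10.2 (0.0212) and 0.30 for ca2 (0.0489). The call of ca2 was lost in 4 of 8 alternatives (adjusted p up to 0.175) and in 5 of the 6 fits that leave out an array, and that of slc12a10.2 with array weights (0.0508) and in 4 of the 6 fits. Without SC replicate 3 at 10 dpf 4 members passed. Exocrine pancreas, liver and intestine genes were at their highest in controls at 5 dpf, and the kidney list as well. Surface and sensory lists were lower after the same step, the mucous list from 7.39 to 7.57 down to 6.20 to 6.46 (3 of 4 fell) and the inner ear list from 6.79 to 6.94 down to 5.88 to 6.25 (4 of 8 fell), and 5 of 12 keratinocyte genes fell and 1 rose. The part of these lists in the members' falls was not tested.

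From 10 to 15 dpf rhcga rose by 1.27 (limma adjusted p = 1.17e-04) and ca2 by 0.38 (0.0157), 2 of 9 members against 24.6% of all genes, with 13.9% that rose. Of all calls there 56.5% rose, or 45.1% after median centring. The count was 1 without SC replicate 2 or 3 at 10 dpf or SC replicate 3 at 15 dpf, and 4 without SC replicate 2 at 15 dpf. The call of ca2 was lost with median centring, array weights or only the compared arrays (adjusted p up to 0.143). After median centring, and after a second quantile normalization, slc12a10.2 passed in this step as a fall. From 15 to 20 dpf rhcga fell by 1.31 (limma adjusted p = 3.47e-04) and ca15c by 0.89 (0.0032), while foxi3b rose by 0.58 (0.0106). The call of foxi3b was lost with only the compared arrays (0.0624). It was also lost without SC replicate 2 at 15 dpf or SC replicate 2 at 20 dpf (adjusted p up to 0.0607). Over all genes 12.4% passed in that step, 8.34% rose and 4.03% fell, a split of 67.4% that became 83.4% after median centring and 78.1% after a second quantile normalization.

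From 20 to 30 dpf 8 of 9 members rose in controls and none fell, against 31.5% of all genes that passed and 22.0% that rose. The carbonic anhydrase gene ca15c rose by 3.13 (SE 0.19, limma adjusted p = 2.69e-11), or 8.75-fold, and rhcga by 3.0 (SE 0.22, limma adjusted p = 2.15e-10), or 8.01-fold. Then came rhcgb at 2.68-fold, slc12a10.2 at 1.93-fold, slc9a3.2 at 1.84-fold, ca2 at 1.80-fold, clcn2c at 1.60-fold and foxi3b at 1.42-fold, the last with an adjusted p of 0.00976. The precursor factor foxi3a was at 0.14 (adjusted p = 0.651). The median of the members was 0.88, against 0.05 over all genes. Control ca15c at 20 dpf lay under the dim limit. The call of clcn2c was lost without SC replicate 1 at 30 dpf (0.0502) and that of foxi3b without SC replicate 3 at 20 dpf (0.079). In the same step the control mucous list went from 7.58 to 7.87 up to 8.25 to 8.45 (2 of 4 rose) and the inner ear list from 5.96 to 6.07 up to 6.41 to 6.48 (3 of 8 rose), and their part was not tested.

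Between 5 and 30 dpf 7 of 9 members rose in controls, against 51.0% of all genes that passed and 34.1% that rose. In knockdown 6 rose and 1 fell, against 50.6% that passed, 30.6% that rose and 20.0% that fell. In controls slc12a10.2 rose by 0.41 (limma adjusted p = 0.0395), or by 0.29 after a second quantile normalization, which did not pass (0.16), and clcn2c was at 0.08. That call of slc12a10.2 was also lost in 4 of the 6 fits that leave out an array. In knockdown slc12a10.2 was at -0.28 (adjusted p = 0.162) and clcn2c fell by 0.60 (limma adjusted p = 0.0149). The call of clcn2c, a dim gene, was lost without KD replicate 1 at 5 dpf or KD replicate 1 at 30 dpf (adjusted p up to 0.107). The Rh genes rose in both treatments, rhcga by 2.07 in controls and 2.35 in knockdown and rhcgb by 1.08 and 2.40. For ca15c the rises were 2.54 and 3.08.

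A list of 70 other ionocyte genes (further HR, NaR, NCC and potassium-secreting cell genes, other transporters, specification factors and hormone control) had 65 measured genes, 29 of them dim. Of these 2 rose and 10 fell in knockdown at 5 dpf, 3 rose and 3 fell at 10 dpf, 7 rose and 1 fell at 15 dpf, 3 rose and 2 fell at 20 dpf, and none rose and 1 fell at 30 dpf. Over all genes 12%, 2.67%, 12%, 14.5% and 1.00% passed at these ages, as given above, with 9.18% that rose at 15 dpf. The medians of the 65 genes were -0.01, 0.02, 0.11, -0.13 and 0.00 in that order. At 5 dpf the Na+,K+-ATPase subunit gene atp1a1a.4 fell by 2.97 (SE 0.18, limma adjusted p = 3.33e-12), from 8.27 to 5.30. The anion exchanger gene slc26a3.2 fell by 2.01 (limma adjusted p = 8.95e-09), cyp24a1, whose enzyme degrades vitamin D, by 1.92 (8.22e-05), and the Na+,K+-ATPase beta subunit gene atp1b1a by 0.94 (3.39e-06). They fell beside rhcgb and beside the kidney, liver and intestine lists above, whose part in these differences was not tested. Of the 9 measured genes listed for HR cells, rhag and ca15a fell at 5 dpf.

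At 10 dpf atp1a1a.4 rose by 0.84 (limma adjusted p = 0.0132) and the forkhead gene foxi1 by 0.61 (0.0160), while the prolactin receptor gene prlra fell by 0.62 (0.00463) and the vitamin D receptor gene vdrb by 0.75 (0.0203). The call of prlra was lost without KD replicate 2 and that of vdrb without SC replicate 2 or KD replicate 2. Those of atp1a1a.4 and foxi1 were each lost without any of 3 arrays, SC replicate 3 and KD replicate 2 among them. None of the 4 passed with only the compared arrays in the fit, but 0 of all genes passed in that fit, so this is not particular to them. At 15 dpf, beside slc4a4b, the basal epidermis factor gene tp63 rose by 0.48 (limma adjusted p = 0.0021, or 0.052 with only the compared arrays), vdrb by 0.85 (0.00274) and the calcitonin gene calca by 0.66 (0.00547). At 20 dpf, beside rhcga and ca15c, the potassium channel gene kcnj1a.2 rose by 1.06 (limma adjusted p = 0.00395) between dim signals of 3.79 and 4.85, the Rh glycoprotein gene rhbg by 0.63 (0.0099) and atp1b1a by 0.56 (0.00252). The glucocorticoid receptor gene nr3c1 fell by 0.40 (0.0203). The call of kcnj1a.2 was lost without SC replicate 2, that of rhbg without SC replicate 3 or KD replicate 1, and that of nr3c1 in 4 of the 6 fits.

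Marker lists of other cell types also differed between the treatments at some ages, with the direction of the members or against it. At 20 dpf 14.5% of all genes passed, and 70.2% of those rose. The mean of 4 mucous cell genes was 8.31 to 8.44 in knockdown arrays and 7.58 to 7.87 in control arrays at that age. Of the 4, 2 rose, agr2 by 1.55 and the mucin gene muc5.2 by 1.26. The mean of 12 keratinocyte genes was 9.23 to 9.25 in knockdown and 9.0 to 9.07 in controls, and 3 of the 12 rose. At 15 dpf, where rhcga and ca15c were lower in knockdown, the mucous list was at 7.11 to 7.49 in knockdown and 7.42 to 7.78 in controls, which overlapped. The keratinocyte list was at 9.30 to 9.36 and 9.17 to 9.35 there. Of its genes 2 rose and 2 fell, where 9.18% of all genes rose and 2.84% fell. At 30 dpf, where slc12a10.2, clcn2c and ca2 were lower, the mucous list was at 8.02 to 8.42 in knockdown and 8.25 to 8.45 in controls, and the kidney list at 5.61 to 5.76 and 5.64 to 6.16. The red cell list (9 genes) was at 7.16 to 7.43 in knockdown and 7.47 to 7.59 in controls at 15 dpf. At 20 dpf it was at 7.50 to 7.70 and 7.40 to 7.48. Of its 9 genes 1 fell at 15 dpf and 1 rose at 20 dpf, where 12% and 14.5% of all genes passed. Its mean parted in the directions of rhcga and ca15c, but the median difference of its genes was -0.16 and then 0.01. The inner ear list was at 6.16 to 6.39 in knockdown and 5.64 to 5.97 in controls at 15 dpf. The liver list was at 5.95 to 6.38 and 5.47 to 5.93 at 15 dpf, had 4 of 11 genes that rose at 20 dpf, and was at 5.75 to 6.42 and 5.52 to 5.69 at 30 dpf. The exocrine pancreas list was higher in knockdown at 15 dpf (7.30 to 8.60 against 5.96 to 7.24) and at 6.17 to 7.73 against 5.48 to 6.49 at 30 dpf. The part of these cells in the members' differences was not tested.

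**Figure D5:**
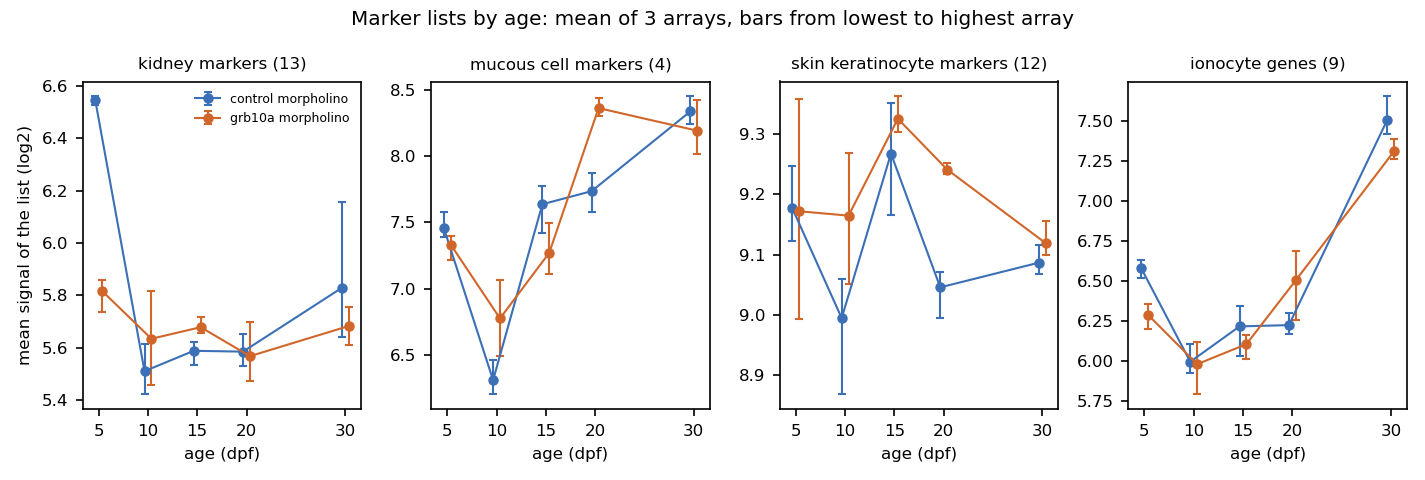
Mean log2 signal of kidney, mucous cell and keratinocyte marker lists and of the measured ionocyte genes (vertical axes, which differ between panels) by age in dpf for control and knockdown fish, with bars from the lowest to the highest of 3 arrays. The kidney list stands at 6.52 to 6.56 in controls at 5 dpf and lower in all other groups, and the mucous list parts between the treatments at 20 dpf (8.31 to 8.44 against 7.58 to 7.87).

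The genes whose 10 group means ran most like those of a bright member were listed by Pearson correlation, as a description of points that share the same 30 arrays. For slc12a10.2 they were tsc1a (0.89), rcbtb2 (0.87) and slc45a4b (0.86). Their group means spanned 0.30, 0.52 and 0.64 log2 units, against 1.30 for slc12a10.2. None of them passed between the treatments at 30 dpf, and at 15 dpf only slc45a4b did (0.38, limma adjusted p = 0.0368). For rhcga the genes were wtap (0.97), the chaperone gene dnaja1 (0.96) and the hexokinase gene hk2 (0.96). In knockdown minus control at 15 and 20 dpf wtap was at -0.07 and 0.32, neither past the test. At these ages dnaja1 fell by 0.76 (limma adjusted p = 2.33e-04) and rose by 0.92 (5.87e-06), and it also rose by 0.54 at 5 dpf. The gene hk2 fell by 0.52 (limma adjusted p = 0.00539) and rose by 0.97 (2.82e-06). Neither dnaja1 nor hk2 had overlapping arrays between the treatments at 15 or 20 dpf. The like genes were chosen by group means that include these ages, so the choice favours such differences and their p-values are no separate support. For rhcgb the genes were ehbp1l1b (0.99), arl6ip5b (0.98) and tppp2 (0.98). For ca2 they were ggt5b, stk17al and rabep2, each at 0.97, and for foxi3b they were ctsz, pfkma and tgm1l3, each at 0.98. Among the members slc9a3.2 and ca2 correlated at 0.97 and rhcgb and foxi3b at 0.95, while clcn2c and ca15c stood at 0.00.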

How the data were processed

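The deposited table holds a log2 signal for each probe set and array. Per the submitters' processing notes it was computed by RMA, with the version not given in the sources used here. All 30 array columns matched a sample by title, and 0 columns were left unused. Of 75212 probe sets, 20806 had 1 gene symbol in the array annotation, 855 had several and 53551 none, and 19804 symbols were updated by Entrez identifier. The brightest probe set stood for each of 19260 genes. Differences were fitted across all genes with limma 3.58.1 in R 4.3.3 and the data.table package (version 1.17.8), in a model of all 30 arrays with a mean for each group, 20 residual and 6.05 prior degrees of freedom, two-sided tests, Benjamini-Hochberg adjustment and a threshold of 0.05. The number of arrays limits the precision.

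The members and gene lists were chosen with earlier results of these data known. All members are named. Of the other ionocyte genes, up to 4 with the smallest p among those called at each age are named, and up to 3 genes are named by likeness to a bright member, passing over dim and clone-based ones. Genes named in marker lists, rhag and ca15a, and contrasts between knockdown differences were chosen after their values were seen. Detection calls were not used. The replicate numbers were not used to pair the arrays in the main fit. The alternatives tried were a fit with intensity trend and robust variance, without dim genes, median centring, and a second quantile normalization. Further ones were the mean of all probe sets of a gene, array weights and a replicate block. Each member has only 1 probe set, so the mean of all probe sets leaves a member's values unchanged and is no real check of it. The last were only the compared arrays, 5 dpf left out and each array left out in turn. The test was checked on simulated data. Figures used matplotlib 3.10.9 in Python 3.11.15.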

Additional observations from a re-analysis of the deposited data

Results flagged for a closer look

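The knockdown minus control difference changed with age, by limma's F test over the 5 ages, for 5 of the 9 measured ionocyte genes, against 31.7% of all genes. F was 30.1 for ca15c (adjusted p = 2.4e-07), whose difference was -0.79 at 15 dpf and 2.02 at 20 dpf. It was 24.1 for rhcga (adjusted p = 1.54e-06), at -1.21 and 1.81 at these ages. For slc12a10.2 F was 11.9 (adjusted p = 2.63e-04), with 0.60 at 15 dpf and -0.94 at 30 dpf, and for clcn2c it was 6.59 (adjusted p = 0.00595), with 0.37 and -0.85. For rhcgb F was 7.56 (adjusted p = 0.00315), with -1.24 at 5 dpf and between -0.13 and 0.13 at the later ages.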

How the results depend on the processing

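No called difference of a member changed its sign under an alternative; uncalled ones were not followed. Leaving out dim genes left 5 members and gave 5 calls for controls from 20 to 30 dpf and 4 for knockdown from 5 to 30 dpf. It gave 3 in the F test and 1 for knockdown at 20 dpf. Every call lost in these results was that of a dim member that had been left out. Array weights gave 2 calls at 5 dpf, 2 for the mean over ages and 1 for controls from 10 to 15 dpf. Fitting only the compared arrays gave 1 for that age step and 1 for knockdown at 15 dpf, and leaving out 5 dpf gave 2 for the mean. These are the larger changes by ratio, and smaller ones occurred too. Among those, leaving out dim genes gave 2 for knockdown at both 15 and 30 dpf, and 5 for controls from 5 to 10 and from 5 to 30 dpf. A second quantile normalization gave 5 for controls from 5 to 30 dpf, and array weights 5 from 5 to 10 dpf. The F test of rhcgb did not pass without 5 dpf (F = 0.361, adjusted p = 0.841). The cause of these changes, where not the genes or arrays removed, was not tested. Leaving out each array in turn gave 4 to 7 calls for controls from 5 to 10 dpf, 1 to 4 from 10 to 15 dpf, 2 to 4 from 15 to 20 dpf, 7 to 8 from 20 to 30 dpf and 5 to 7 from 5 to 30 dpf. It gave 5 to 7 for knockdown from 5 to 30 dpf and 5 to 6 in the F test. Between the treatments the count ran from 1 to 2 at 5 dpf, was 0 throughout at 10 dpf, ran from 1 to 3 at both 15 and 30 dpf, from 2 to 3 at 20 dpf and from 0 to 2 for the mean. The mean count was 0 without SC replicate 2 at 5 dpf or KD replicate 3 at 15 dpf, and the 5 dpf count 2 without SC replicate 3. The replicate numbers share no stated source. Of 15 same-numbered pairs 4 correlated over 0.1 (range -0.116 to 0.275). In 9 of them the knockdown array was closest to the control array of its own number. That held for every pair at 20 and 30 dpf. The block tried was a single shift for each number, shared by all ages. With it, the counts at 5 to 30 dpf stayed 1, 0, 3, 3 and 3 and that of the F test 5. Controls from 5 to 10 dpf gave 6 and from 15 to 20 dpf 4, and slc4a4b at 30 dpf no longer passed. Such a block cannot take out a likeness of same-numbered arrays within an age. Whether the calls at 20 and 30 dpf hold in a paired fit of each age was therefore not tested.

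Of 9 measured members 4 were dim on average, each gene rests on 1 probe set, and signal over background was not measured. With 3 pools of 5 fish in a group, small differences that miss the threshold do not show equal levels.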

Other observations

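Genes of hormone control in ionocytes moved with age in control fish, and the genes given here were chosen after their values were seen. From 5 to 10 dpf, when 7 of the 9 members fell, 7 of 18 measured hormone control genes rose and 2 fell, where 28.5% of all genes passed. The mineralocorticoid receptor gene nr3c2 rose by 1.12 (SE 0.14, limma adjusted p = 1e-06), from 7.31 to 8.43, and hsd11b2, whose enzyme inactivates cortisol, by 1.21 (SE 0.17, limma adjusted p = 2.91e-06), from 6.59 to 7.81. From 10 to 15 dpf 1 rose and 8 fell, where 24.6% of all genes passed, and nr3c2 fell by 0.60 and hsd11b2 fell by 0.91. Over the 5 to 10 dpf step atp1a1a.4 fell by 3.40 and slc26a3.2 by 2.68. Of the 65 other ionocyte genes measured, 9 rose and 15 fell there, where 14.7% of all genes fell. All 12 exocrine pancreas genes and all 11 liver genes fell in the same step, as did 5 of 6 intestine genes. Of 13 kidney genes 9 fell and 1 rose. The part of these tissues in the falls of atp1a1a.4 and slc26a3.2 was not tested.

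From 20 to 30 dpf gcm2, which encodes a factor needed for HR cells, rose by 1.04 (SE 0.16, limma adjusted p = 2.65e-05), from 6.57 to 7.61, after a fall of 0.87 between 5 and 10 dpf. In the same step rhbg rose by 1.18, atp1b1a by 1.06 and atp1a1a.3 by 1.07, beside the 8 members that rose. These genes were picked after their values were seen. Of the 65 other ionocyte genes measured, 14 rose and 3 fell in that step, where 22.0% of all genes rose. The median of the 65 was -0.05, against 0.05 over all genes. The rises of gcm2, rhbg, atp1b1a and atp1a1a.3 passed without any single array of the comparison.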
